A study of Mus musculus with 6 samples.

Results

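The cytosolic ribosome is built from a small subunit, which reads the messenger RNA, and a large subunit, which forms peptide bonds. Each holds its own set of ribosomal proteins, named RPS and RPL, and one copy of nearly every protein enters each ribosome, so that cells make them in matched amounts. Their mRNAs belong to the TOP class (terminal oligopyrimidine), which starts with a C followed by a run of pyrimidines and whose translation is switched by the kinase mTOR. The genes described here were every row of a mouse bead array table whose symbol begins with Rpl or Rps and a digit, or is Rpsa or Rplp0 to Rplp2, with the S6 kinase genes left out. That rule used names and no measured value, but it was set with earlier results of these data known. It gave 83 of the 25697 rows, each of them 1 probe, for 64 gene symbols, of which 16 had more than 1 probe. The large subunit was covered by 49 probes of 36 symbols and the small subunit by 33 probes of 27 symbols. The remaining row, Rps19bp1, is named for a binding partner of RPS19 and is not a ribosomal protein. The row called Rps4y2 in the file is named Rps4l in RefSeq, where it is a transcribed pseudogene. Rpl5, Rpl11, Rpl7, Rps27 and several other ribosomal protein genes were not analysed here.

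The RNA came from C57BL/6 mouse embryonic fibroblasts, or MEFs, the connective tissue cells that grow out of cultured embryos. They carried either truncated NELF-B, titled ATG, or full-length NELF-B, titled FL. NELF-B belongs to the negative elongation factor, a complex that keeps RNA polymerase II paused close to promoters, and the study concerns its translation from a start codon that is not AUG. Both groups grew in DMEM with 10% serum and were taken at 50% confluence, and total RNA of 3 samples per form was hybridised to 6 single-colour Illumina arrays. The sources used here do not give how each form was brought into the cells, the age of the embryos or whether samples of a form were separate cultures. The p-values thus cover only the spread between these arrays, which can be technical. The comparison addresses how gene expression differs between the forms. Levels below are normalized log2 intensities and changes are truncated minus full-length on that scale, each with its limma standard error (SE), from 3 arrays per form (n = 3).

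Array medians lay between intensities of 143 and 152, with 46.4% to 48.7% of all probes above background, and the number of arrays limits the precision. Of 11 fibroblast marker genes with a probe, 9 were above background, among them Col1a1, Col1a2, Col3a1, Pdgfra and Vim, while Thy1 and Lum were not. The 9 had a median change of -0.46, and 6 of them had an unadjusted p under 0.05, where 19.0% of all probes did. All 6 were lower with truncated NELF-B, where 9.72% of all probes were lower at that p, and none passed the adjusted test. Their part in the ribosomal protein values was not tested. Of the markers of other cell types, 2 of 6 macrophage genes (Csf1r and Cd68), 1 of 5 endothelial genes (Kdr), 1 of 5 epithelial genes (Cdh1), 1 of 4 skeletal muscle genes (Des), 2 of 3 neural genes (Tubb3 and Nes) and 0 of 3 erythroid genes were above background. Of these, Kdr (-0.44) and Des (-0.40) had an unadjusted p under 0.05 and did not pass the adjusted test. Both were dim, with truncated and full-length means of 4.93 and 5.37 for Kdr and 4.86 and 5.27 for Des. The brighter Rpsa probe, above background on only 2 arrays, had means of 5.03 and 4.89. Csf1r, Cd68, Cdh1 and Tubb3 were dim too, with means of 4.84 to 5.51. Changes this close to background were not taken as a shift in cell types. In bulk samples, fewer cells of a type and less RNA per cell cannot be told apart.

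The promoters share sequence that the choice of genes did not use. RefSeq's table for GRCm38.p6 held the start of 52 of the 64 symbols, 51 of them without Rps19bp1. In the 30 bases around the annotated start, 15 on each side, 22 of the 51 genes (43.1%) had an unbroken run of at least 8 C or T on the strand of the gene, against 13.9% of 27025 genes in the table. The letters CGGAAG, the core that ETS family factors bind, stood on either strand of the 300 bases from 250 before to 50 after the start in 35 of the 51 genes (68.6%), against 18.8% of all genes. The letters ATGGCG, the core of the YY1 site, did so in 15 (29.4%), against 10.2%. Of the 51 genes, those with several annotated starts were counted where any start matched. Rpl19, for example, had runs of 5 and 11 bases. CGGAAG and ATGGCG can share 2 bases, and the reverse of CGGAAG can share bases with the C and T run. ATGGCG begins with the letters of the start codon, and the 50 bases after the start can reach coding sequence, which was not set apart. The shares of all genes are over the whole table and not over genes expressed here. Annotated starts can lie some bases away from the start that cells use, and a match is a description and not a binding site. The windows printed here are those of S6, L38, S10 and S19, of some paralog forms, and of the main forms Rpl36a and Rpl39. Capitals mark the longest run of C and T in each window, 5′ to 3′.
Rps6, chr4:86857353-86857382, minus strand: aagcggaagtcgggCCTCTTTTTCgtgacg
Rpl38, chr11:114668565-114668594, plus strand: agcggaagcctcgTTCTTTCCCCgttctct
Rps10, chr17:27635230-27635259, minus strand: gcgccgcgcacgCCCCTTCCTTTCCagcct
Rps19, chr7:24884898-24884927, plus strand: gagggagcggggtgtggagggCTCTCCCac
Rpl36a, chrX:134585639-134585668, plus strand: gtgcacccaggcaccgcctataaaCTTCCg
Rpl36al, chr12:69184053-69184082, minus strand: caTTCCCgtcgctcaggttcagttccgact
Rpl39, chrX:37085208-37085237, minus strand: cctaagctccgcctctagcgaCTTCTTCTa
Rpl39l, chr16:10170213-10170242, plus strand: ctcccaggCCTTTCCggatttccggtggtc
Rpl22l1, chr3:28805493-28805522, plus strand: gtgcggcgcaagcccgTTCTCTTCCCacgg
Rps27l, chr9:66946071-66946100, plus strand: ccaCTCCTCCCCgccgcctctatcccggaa
Rpl7l1, chr17:46782642-46782671, minus strand: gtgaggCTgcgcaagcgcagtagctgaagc
The run was 10 bases long in Rps6 and Rpl38, where it covered the annotated start, and 13 in Rps10. It was 5 bases in both Rpl36a and Rpl36al, 8 in Rpl39 against 7 in Rpl39l, 10 in Rpl22l1, 9 in Rps27l and 2 in Rpl7l1. Rps19 has 3 annotated starts in the table, and the window shown has the longest run among them, of 7 bases. Rps27l has another start, with a run of 4 bases. Of the paralog and main forms not printed, Rpl22 and Rpl3l each had runs of 5 and 4 at their starts, and Rps4x a run of 4. The genes are spread over the genome: the 64 symbols fall on 18 chromosomes, with 13 of them on chromosome 7, 7 on chromosome 9 and 3 on the X chromosome.

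Ribosomal protein transcripts were at nearly the same level with truncated and full-length NELF-B. Of the 83 probes, 65 for 54 symbols were above background on at least 3 of the 6 arrays and were tested, and all 65 were above background on every array. Rps19bp1 is among the 65 and is counted with the ribosomal protein probes, though with neither subunit. None of the 65 passed at an adjusted p under 0.05 (limma, Benjamini-Hochberg over 12227 probes), where 0.638% of all probes did, 0.164% higher and 0.474% lower. The smallest adjusted p among them was 0.0776 and the next 0.257. Without adjustment 3 of the 65 (4.62%) had p under 0.05, 2 higher and 1 lower with truncated NELF-B, against 19.0% of all probes (9.32% higher and 9.72% lower). The median change was -0.010 over the 65 probes and 0.0078 over all probes tested, with 29 ribosomal protein probes above 0 and 36 below. The changes were also small in size. The median absolute change was 0.066, against 0.16 for all probes, and 6 of the 65 (9.23%) lay beyond 0.25 either way, against 30.8% of all probes. For 60 of the 65 (92.3%) the 95% interval of the change lay wholly within 1.5-fold either way, against 66.9% of all probes, and for 64 within 2-fold, against 96.9%. For 7 of the 65 (10.8%) the forms shared no range of values, with the truncated arrays above in 4 and below in 3. Over all probes that share was 24.8%, with 12.5% above and 12.4% below.

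**Figure D1:**
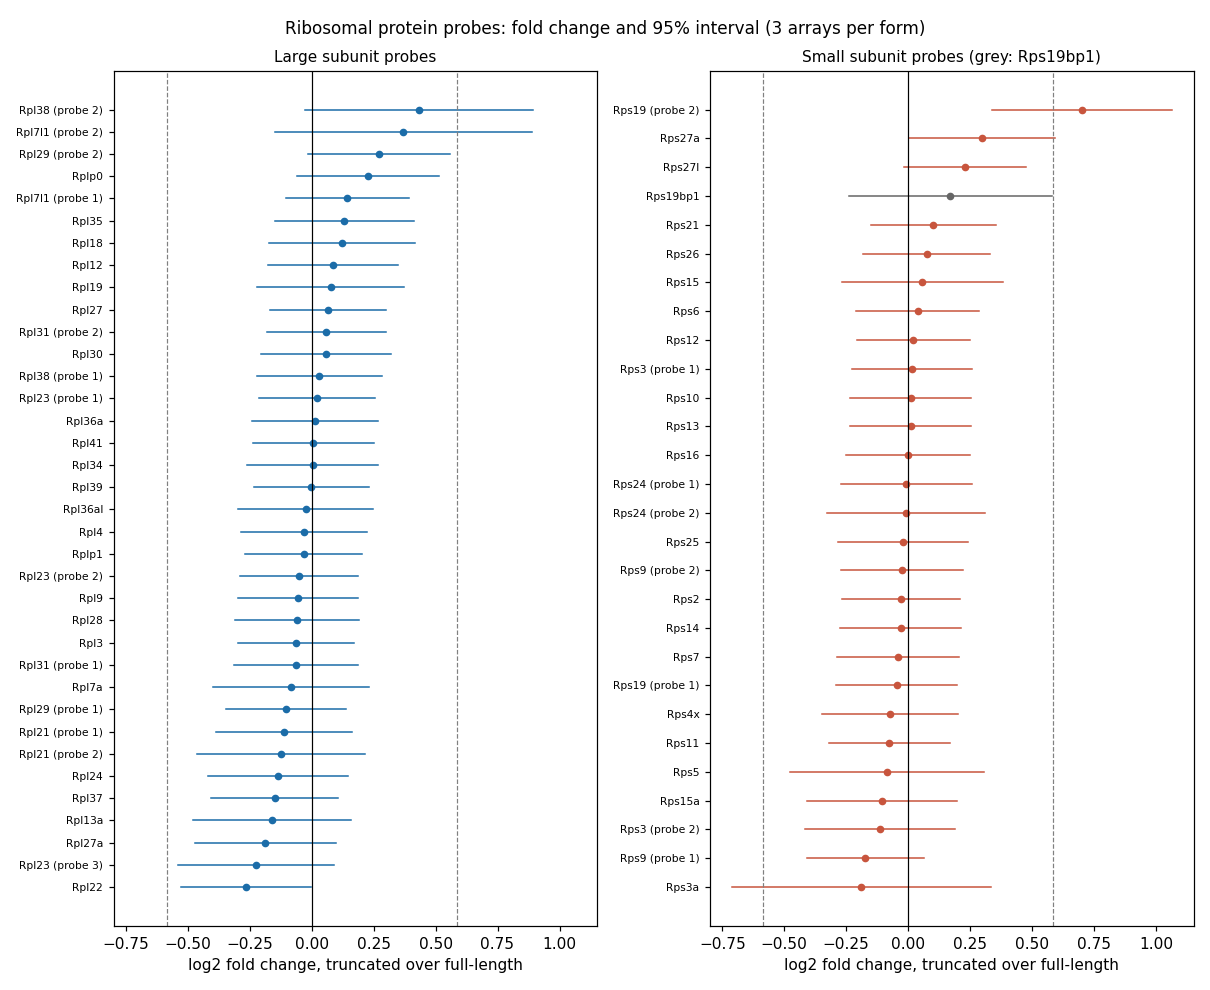
Log2 fold change (truncated over full-length, x axis) of 64 of the 65 tested probes, each with its 95% interval as a bar. The large subunit is on the left, and the small subunit, with Rps19bp1 in grey, is on the right. Where a symbol had several tested probes, probe 1 is the brightest. Dashed lines mark 1.5-fold, and 59 of the 64 intervals lie between them.

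Most of these probes were bright, and the bright ones changed least. Mean levels ran from 6.28 to 15.4, and single intensities reached 48237, the highest in the table. At a mean level of 13 or more, a limit chosen after the values were seen, there were 38 ribosomal protein probes and 203 other probes. The largest absolute change among the 38 was 0.23 and the median 0.049. The other bright probes had a median of 0.11 and reached 0.81. None of the 38 had an unadjusted p under 0.05, against 15.3% of the 203, and all 38 intervals lay within 1.5-fold, against 87.2%. No probe of either set at that level passed the adjusted test. The 27 dimmer ribosomal protein probes had a median absolute change of 0.12 and reached 0.70, and 22 of them had an interval within 1.5-fold. Quantile normalization gives all 6 arrays the same set of values, which can hold the brightest probes together. With median scaling in its place, Rplp1 stood at -0.14 and Rps2 at -0.13, against -0.03 for each in the main fit. Rpl37 stood at -0.13 against -0.15. How much of the small change at bright probes comes from the normalization was not tested. Whether the brightest spots were near the limit of the scanner was not tested either.

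**Figure D2:**
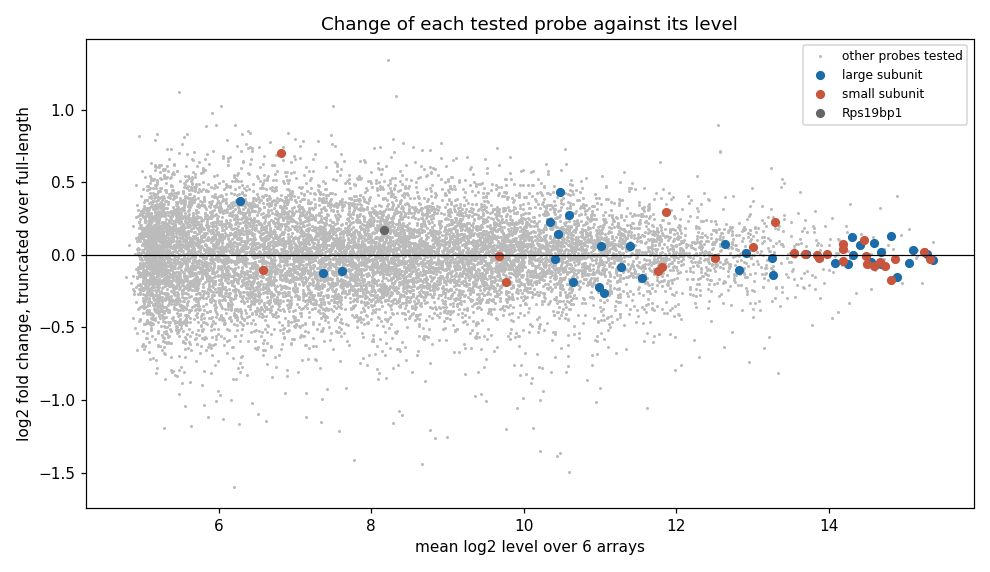
Log2 fold change (truncated over full-length, y axis) of every tested probe against its mean log2 level over the 6 arrays (x axis). Ribosomal protein probes are in colour, Rps19bp1 is in dark grey and all other probes are in light grey. The 38 ribosomal protein probes at a level of 13 or more lie within 0.23 of 0, while the other probes at that level reach 0.81.

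The medians of the large and the small subunit both lay close to 0. The 36 tested large subunit probes had a median change of -0.013, with a range of -0.27 to 0.43, and 17 above 0 and 19 below. The 28 tested small subunit probes had a median of -0.015, with a range of -0.19 to 0.70, and 11 above 0 and 17 below. With each gene stood for by its brightest probe, the medians were -0.024 for 29 large subunit genes and -0.014 for 24 small subunit genes, and the small subunit's range closed to -0.19 to 0.30. The share of probes beyond 0.25 was 11.1% for the large and 7.14% for the small subunit over all their probes, and 3.45% and 4.17% with the brightest probe of each gene. These are descriptions of each subunit, with no test between them.

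The set as a whole shifted little on any array. Each probe was centred on its mean over the 6 arrays, and the median deviation of the 65 probes was 0.0086, 0.012 and -0.031 on truncated replicates 1, 2 and 3 and 0.015, -0.053 and 0.031 on full-length replicates 1, 2 and 3. The deviations of the forms therefore overlapped, and the lowest and the highest array both belonged to the full-length form. The median SD over 3 arrays of one form was 0.082 (truncated) and 0.088 (full-length) for ribosomal protein probes, against 0.15 and 0.15 for all probes tested.

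**Figure D3:**
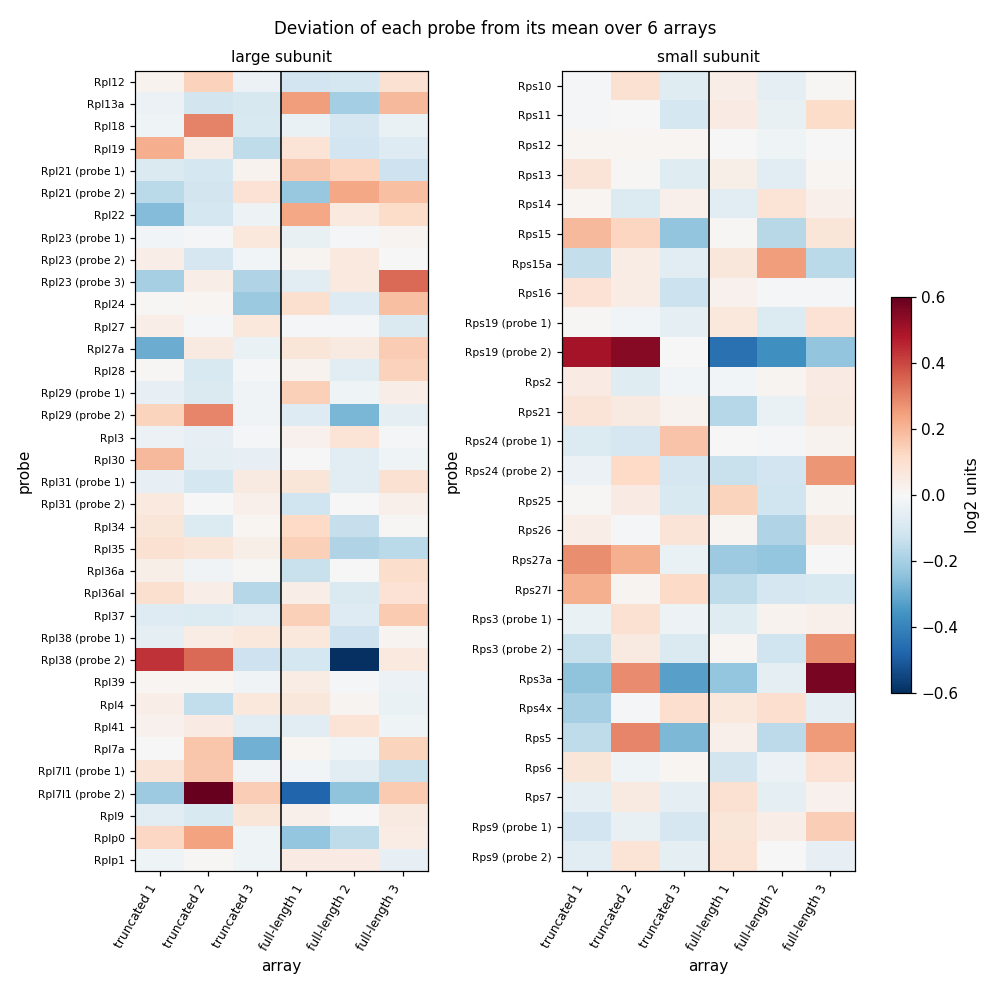
Deviation of large (left) and small (right) subunit probes, each from its own mean over the 6 arrays, in log2 units, with 1 column for each array and the forms divided by a line; the colour scale ends at the values on its bar. Most rows are pale on all arrays, and the rows of strong colour are the second probes of Rps19, Rpl38 and Rpl7l1 and the probe of Rps3a.

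The probe nearest to passing was the dimmer one of Rps19, a small subunit protein whose gene is mutated in Diamond-Blackfan anaemia. It read 7.31, 7.36 and 6.81 on the truncated arrays and 6.36, 6.44 and 6.58 on the full-length arrays. The lowest truncated array, replicate 3, still stood above the highest full-length array. The change was 0.70 ± 0.16 (SE), a 1.62-fold higher normalized level, with an adjusted p of 0.0776 (limma). Its exact permutation p was 0.1 (two-sided), and no lower p is possible with 3 arrays on each side. The brighter Rps19 probe read 14.68, 14.66 and 14.61 with the truncated form and 14.74, 14.59 and 14.76 with the full-length form. Those arrays overlapped, and the change was -0.05 ± 0.11, so the probes of 1 gene went in opposite directions. The within-array difference between the 2 probes changed by 0.75 between the forms (exact permutation p = 0.1, two-sided, 0.333 when adjusted over 10 genes with several tested probes). The dimmer Rps19 probe passed in 7 of 17 other fits, at adjusted p of 0.0178 to 0.0484 by limma, and no other ribosomal protein probe passed in any of the 17. In the fits that held it and where it did not pass, the adjusted p ran from 0.0799 to 0.257. Its change was smaller in 3 of the 7, at 0.34 with no background correction, 0.33 with the series matrix values and 0.47 with normexp. The share of all probes that passed rose as well in those 7 fits. It was 6.71% with no background correction, 5.91% with normexp by maximum likelihood, 6.95% with the series matrix values, 2.36% with probes detected on all 6 arrays, 6.85% with an intensity trend and robust eBayes, 2.51% with array weights and 0.867% without truncated replicate 3.

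Rps27a and Rpl22 were the others with an unadjusted p under 0.05. Rps27a, which encodes ubiquitin fused to a small subunit protein, read 12.14, 12.07 and 11.82 on the truncated arrays and 11.64, 11.63 and 11.86 on the full-length arrays. The forms overlapped, since full-length replicate 3 lay above truncated replicate 3, and the change was 0.30 ± 0.13 (adjusted p = 0.257, limma). Rpl22, a large subunit protein whose paralog is Rpl22l1, read 10.79, 10.94 and 11.01 with the truncated form and 11.28, 11.10 and 11.16 with the full-length form. The truncated arrays were all lower, by 0.27 ± 0.12 on average (adjusted p = 0.257, limma).

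**Figure D4:**
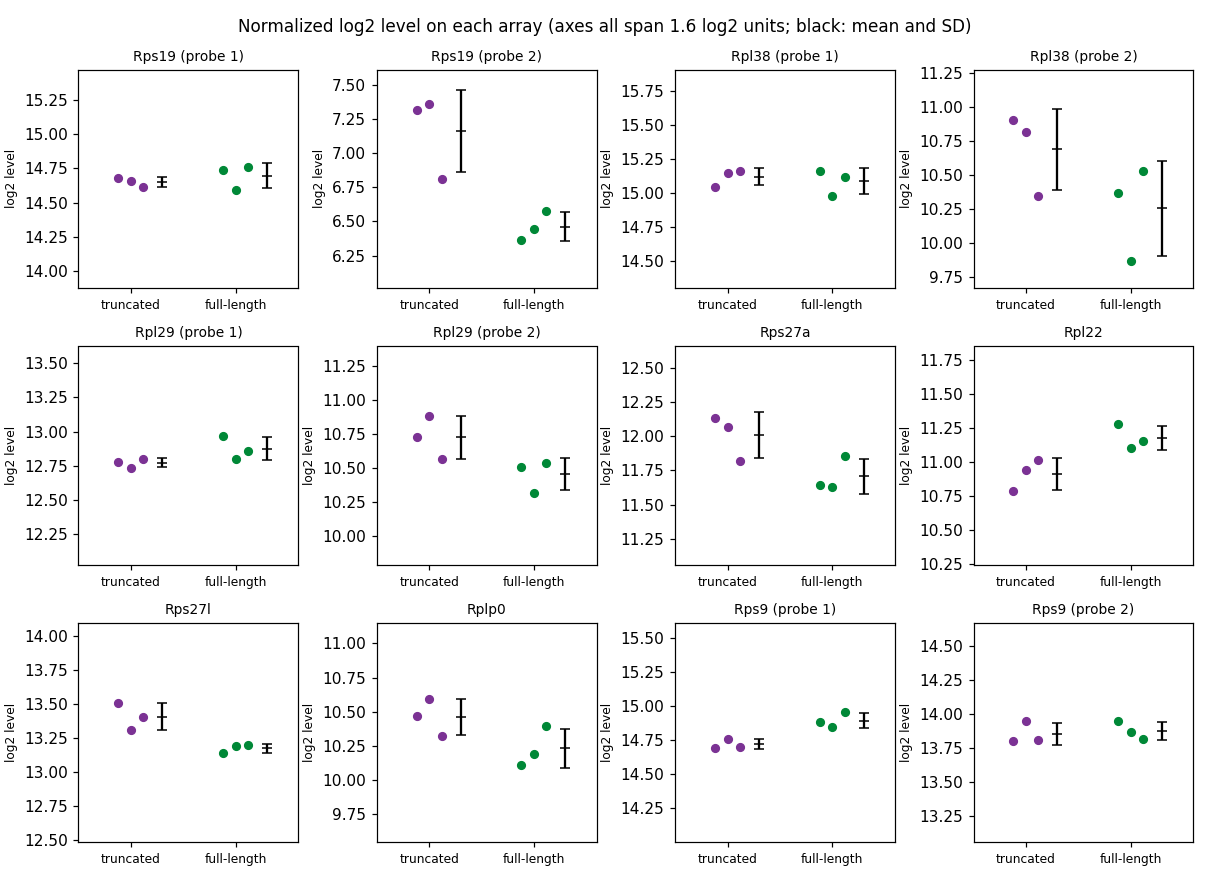
Normalized log2 level (y axis) on each of the 3 truncated (purple) and 3 full-length (green) arrays for probes of 8 genes, with the mean and SD in black; every y axis spans the same width. The dimmer Rps19 probe (probe 2) separates the forms, while the brighter one (probe 1) and both Rpl38 probes overlap between them.

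Other members whose arrays did not overlap had small or uncalled changes. Rps27l read 13.50, 13.31 and 13.40 with the truncated form and 13.14, 13.19 and 13.20 with the full-length form, a change of 0.23 ± 0.11. The dimmer Rpl29 probe was higher on the truncated arrays, at 10.73, 10.89 and 10.57 against 10.51, 10.32 and 10.53, by 0.27 ± 0.13. The brighter Rpl29 probe stood at -0.10 ± 0.11. One Rps9 probe was lower on all truncated arrays (-0.17 ± 0.10) and the other did not separate the forms (-0.02 ± 0.11). The forms also did not overlap on Rps12, with a very small difference (0.02 ± 0.10). On Rps12 the truncated arrays all read 15.26, since quantile normalization gives equal ranks an equal value, and the full-length arrays 15.22 to 15.24. Adjusted p for these probes ranged from 0.283 to 0.937 by limma. The dimmer Rpl38 probe had a larger change, 0.43 ± 0.20, but read 10.90, 10.81 and 10.35 against 10.36, 9.87 and 10.53, so its forms overlapped. It was 0.24 without full-length replicate 2, and the brighter Rpl38 probe stood at 0.03 ± 0.11. Rpl38, in the mouse, is known for its part in the translation of Hox mRNAs.

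The remaining probes among the 12 with the smallest p in each direction all overlapped between the forms. On the lower side, Rpl27a stood at -0.19 ± 0.12, Rpl37 at -0.15 ± 0.11, Rpl13a, which in human cells also acts in a complex that silences mRNAs, at -0.16 ± 0.14, Rpl24 at -0.14 ± 0.12 and the dimmer Rps3 probe at -0.11 ± 0.13. Rps3a stood at -0.19 ± 0.23, with 9.53, 10.05 and 9.45 on the truncated arrays and 9.54, 9.72 and 10.34 on the full-length arrays, so that full-length replicate 3 was the highest, and its change was 0.050 without that array. On the higher side, Rpl18 stood at 0.12 ± 0.13, Rps21 at 0.10 ± 0.11 and Rps19bp1 at 0.17 ± 0.18. Their adjusted p ranged from 0.457 to 0.701 by limma.

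Of 10 genes with several tested probes, 5 had probes of opposite sign (Rpl23, Rpl29, Rpl31, Rps19 and Rps3). The within-array differences between the dimmest and the brightest probe of these genes could not pass, since 0.1 is the lowest exact permutation p for 3 arrays on each side, and Rps19, Rpl29 and Rps9 stood at it. The 3 tested Rpl23 probes changed by 0.02 ± 0.10, -0.05 ± 0.11 and -0.22 ± 0.14, from the brightest to the dimmest, the last at -0.11 without full-length replicate 3. The Rps24 probes changed by -0.0076 and -0.010 and the Rpl21 probes by -0.11 and -0.12, so these pairs moved alike. Many ribosomal protein genes have processed pseudogenes of near-identical sequence, and the files do not say which copies a probe can read.

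By role, the stalk came first. The stalk proteins P0, P1 and P2 recruit elongation factors to the large subunit. Rplp0 read 10.47, 10.59 and 10.32 with the truncated form and 10.11, 10.19 and 10.39 with the full-length form, which overlapped, for a change of 0.23 ± 0.13 (adjusted p = 0.367, limma). Rplp1 changed by -0.03 ± 0.10, and the probe of Rplp2 was not above background on any array. At the exit of the peptide tunnel, where the new chain leaves the ribosome, Rpl19 (0.08 ± 0.13), Rpl31 (-0.06 ± 0.11), Rpl35 (0.13 ± 0.12) and Rpl39 (-0.0020 ± 0.10) did not pass. Along the path of the mRNA and the decoding site, Rps2 (-0.03 ± 0.10), Rps3 (0.02 ± 0.11), Rps15 (0.06 ± 0.14) and Rps26 (0.07 ± 0.11) did not pass either. All 8 of these tunnel and mRNA path genes had an interval within 1.5-fold.

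Rps6, whose protein is phosphorylated by S6 kinases downstream of mTOR, read 14.25, 14.16 and 14.19 with the truncated form and 14.07, 14.15 and 14.27 with the full-length form. Those values overlapped, with a change of 0.04 ± 0.11. Rack1, a scaffold on the small subunit that the naming rule did not take, changed by -0.36 ± 0.17 (adjusted p = 0.292, limma) on a dim probe that read 5.17 to 5.55 with the truncated form and 5.53 to 6.06 with the full-length form. Among the genes mutated in Diamond-Blackfan anaemia, 9 of the 18 listed had a probe, 0 passed, 5 were above 0 and 4 below on their brightest probe, and all 9 intervals lay within 1.5-fold. On the X chromosome, Rpl36a (0.01 ± 0.11), Rpl39 and Rps4x (-0.07 ± 0.12) did not pass.

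Paralog forms have symbols that end in l or l1, and some of them are known in mammals for expression limited to some tissues or states. Of 7 such forms with a probe, 3 were above background. Rpl36al read 13.34, 13.29 and 13.08 with the truncated form and 13.29, 13.16 and 13.33 with the full-length form, with a change of -0.02 ± 0.12. Its main form Rpl36a read 12.95, 12.89 and 12.92 against 12.77, 12.91 and 13.01. Both overlapped, and the change of Rpl36al minus that of Rpl36a was -0.04 (exact permutation p = 0.7, two-sided), the only pair of 5 with both forms above background. Rps27l, a target of p53 in human and mouse cells, was the paralog form with the smallest p, as given above. The brighter probe of Rpl7l1, a factor of large subunit assembly, changed by 0.14 ± 0.11 and the dimmer by 0.37 ± 0.23. With 1 array left out the latter was 0.15 (truncated replicate 2), 0.58 (truncated replicate 1) or 0.23 (full-length replicate 1). It was 0.15 with no background correction, 0.14 with the series matrix values and 0.22 with normexp. The main forms Rps27 and Rpl7 were not analysed here.

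The other 4 paralog forms were not well above background. Rpl3l, which is known from striated muscle, Rpl39l, known from the testis, and Rps4y2 were above background on 0 of 6 arrays, and Rpl22l1 on 1 of 6. Their main forms Rpl3 (-0.06 ± 0.10), Rpl39, Rps4x and Rpl22 were above background on all 6. No change is given for the dim forms, so these pairs were not compared.

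In all, 18 of the 83 probes were not tested, with intensities of 111 to 161. Of these, 13 were above background on 0 arrays, 4 on 1 array and 1 on 2 arrays. For 6 genes (Rpl23, Rpl27a, Rpl37, Rpl4, Rplp0 and Rps27a) another probe of the same gene was tested. For 10 symbols no probe was: besides the 4 paralog forms, these were Rpl14, Rpl17, Rpl6, Rplp2, Rps23 and Rpsa, the last with 2 probes. Ribosomal proteins are needed in every growing cell, and the files do not say whether these probes can read the transcripts of MEFs, so a probe that was not above background was not taken as absence of the gene's RNA.

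Genes that act with the ribosomal proteins were read from gene lists, each gene by its brightest tested probe, and none of them passed, where 0.638% of all probes did. Of 20 tested TOP mRNAs of other proteins, 9 were above 0, 10 below and 1, the elongation factor gene Eef1a1, at 0. The median was -0.02, and 0 had an unadjusted p under 0.05. Eef1a1 read 15.30, 15.31 and 15.36 with the truncated form and 15.36, 15.31 and 15.30 with the full-length form. Its exact 0 rests on quantile normalization, which gives equal ranks an equal value. Nap1l1, a histone chaperone, stood at 0.29 ± 0.14, Cct4, a chaperonin subunit, at 0.21 ± 0.11, Impdh2, an enzyme of guanine nucleotide synthesis, at 0.23 ± 0.13 and the RNA-binding protein gene Hnrnpa1 at -0.28 ± 0.17.

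Among 11 tested chaperones and nuclear importers of ribosomal proteins, 9 were above 0, against 51.7% of all probes, with a median of 0.19. Of the 11, 4 had an unadjusted p under 0.05, all higher, where 9.32% of all probes did so. Grwd1, the chaperone of RPL3, read 9.04, 8.73 and 8.55 with the truncated form and 8.34, 8.12 and 8.30 with the full-length form. The truncated arrays were all higher, by 0.52 ± 0.15 (adjusted p = 0.123, limma). Ltv1, known from yeast as an assembly factor of the small subunit, stood at 0.39 ± 0.12, the importin Ipo5 at 0.32 ± 0.12 and Heatr3, which carries RPL5, at 0.32 ± 0.13, with adjusted p from 0.134 to 0.234 by limma. None of these passed.

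Of 14 tested genes of TOP mRNA control and S6 kinases, 11 were above 0, against 51.7% of all probes, with a median of 0.09. At an unadjusted p under 0.05, 2 were higher and 1 lower, where 9.32% and 9.72% of all probes were. Eif4ebp1, a repressor of cap-dependent translation under mTOR, stood at 0.38 ± 0.12 and the kinase gene Rps6ka3 at 0.42 ± 0.15. The RNA-binding protein gene Larp4b stood at 0.29 ± 0.13 and Deptor, an inhibitor of mTOR, at -0.52 ± 0.15. Adjusted p for these genes ranged from 0.131 to 0.271 by limma. The probes of Deptor and Larp4b were dim. Deptor read 5.11, 5.41 and 5.01 with the truncated form and 5.49, 5.70 and 5.90 with the full-length form. Larp4b had means of 6.06 and 5.77. Of 8 tested genes that degrade ribosomal proteins or link them to p53, 4 were above 0 and 4 below, with a median of -0.00031. Nedd8 (0.13 ± 0.12), Rnf10 (0.17 ± 0.13), Ube2o (0.12 ± 0.13) and Trp53 (-0.28 ± 0.19) had the smallest p values in it.

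Changes were also set beside the pyrimidine run at the annotated start. The 19 tested genes with a run of at least 8 at any annotated start had a median change of -0.0020. Their range was -0.19 to 0.23. The 24 without such a run had a median of 0.0034, with a range of -0.27 to 0.23. No test was made between them.

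**Figure D5:**
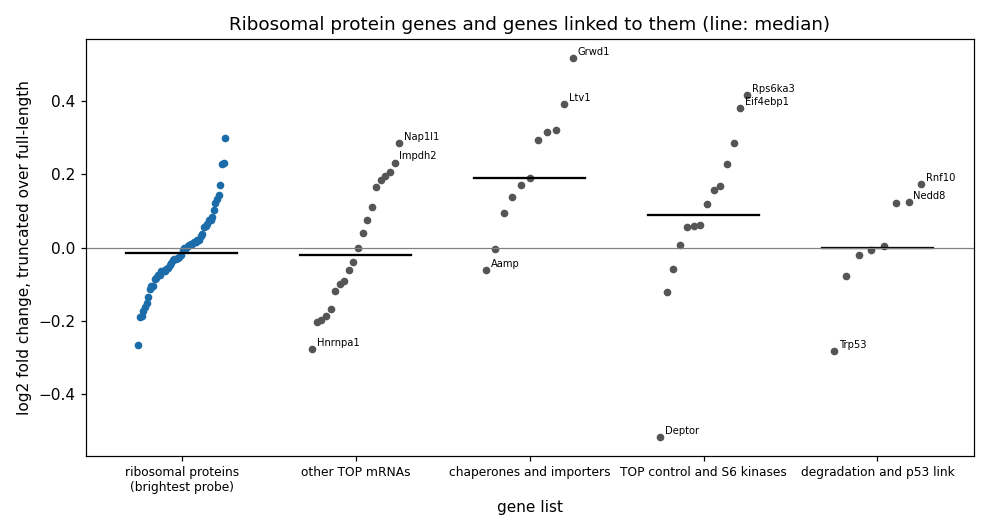
Log2 fold change (truncated over full-length, y axis) of the 54 tested symbols, Rps19bp1 among them, each by its brightest tested probe (blue). Grey points are 4 lists of linked genes, with their outer genes named, and a line marks each median. The medians are -0.014 for the ribosomal proteins, -0.02 for other TOP mRNAs and 0.19 for the chaperones and importers, and no gene shown passed the test.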

How the data were processed

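The members and gene lists were chosen with earlier results of these data known. Per the file headers, the authors deposited a non-normalized intensity for every probe and array, with a detection p-value beside it. GenomeStudio appears in the submitters' processing notes. The series matrix, also deposited, has linear intensities with nearly equal quantiles over its 6 columns; how they were normalized is not given in the sources used here, and neither are chip and scan date. It served as an alternative only. Unused columns of values numbered 0.

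Groups came from the sample titles. Probes were named through RefSeq accessions in the gene table of GRCm38.p6 (24202 by accession, 536 by symbol, 297 by synonym, 662 by none of these), while members were matched on the file's symbols. The neqc function of limma 3.58.1 (R 4.3.3) inferred negative controls from detection p-values, corrected the background, added an offset of 16, quantile normalized and took log2, which shrinks the folds of dim probes. Each probe detected at p under 0.05 on at least 3 arrays was fitted (lmFit, eBayes, 2 group means), with Benjamini-Hochberg adjustment over all 12227 and a threshold of 0.05. A gene stands by its probe with the highest mean where 1 probe is used. The fit was tested on simulated data. Named are the members past the test, the 12 member probes with the smallest p in each direction, paralog and main forms, the role lists, probes of a gene that disagree, and up to 4 genes of each other list. Members beyond these, the split by level and the promoter counts were chosen after the values were seen. Values of 1 member are not reported here by name. Figures were drawn with matplotlib 3.10.9.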

Additional observations from a re-analysis of the deposited data

How the results depend on the processing

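Under 17 other fits, of which that with 1 probe per gene leaves the dimmer Rps19 probe out, and with Rps19bp1 and the pseudogene left out, the count of ribosomal protein probes past the test was 0 or 1. It was 1, the dimmer Rps19 probe, with no background correction, with normexp by maximum likelihood at an offset of 50, with the series matrix values, with only probes detected on all 6 arrays, with an intensity trend and robust eBayes, and with array weights. In these fits 2.36% to 6.95% of all 12227 or 10668 probes passed. Over all probes the main fit called 78, and the others 14 to 850, or 0 to 106 with 1 array left out. Leaving out 1 array gave 0 to 1, the 1 without truncated replicate 3. In every case the cause was not tested. The change of that probe was 0.34 with no background correction and 0.33 with the series matrix values, against 0.70. The median over the ribosomal protein probes was -0.050 with median scaling, where the median of all probes was -0.055, and -0.025 to 0.012 when 1 array was left out. Intervals within 1.5-fold numbered 55 to 64 of 65, 52 of 54 with 1 probe per gene, 77 of 83 with no filter and 59 of 64 with Rps19bp1 and the pseudogene left out, and the subunit medians moved by less than the spread between arrays. Of 38 named probes recomputed under the other fits (638 values), 20 values had the other sign, none of them called. With the replicate number as a block, 0 ribosomal protein probes and 0.262% of all probes passed, and 57 intervals in place of 60 lay within 1.5-fold. Same-numbered arrays did not deviate together (correlations of 0.025, -0.14 and -0.12), and arrays of unlike number had correlations of -0.029 to 0.16. With 3 arrays per form centred on their mean, such correlations cannot show whether samples were paired or shared a batch. The 18 dim probes have only a bound, and signal over background limits what can be said of them.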
